A study of Mus musculus with 20 samples.

Results

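Transient receptor potential (TRP) channels are cation channels that sensory nerve endings use to detect temperature and irritant chemicals. The data described here cover 10 of their genes, chosen by name and found by Ensembl identifier among the 37620 genes of the deposited table: Trpv1, Trpv2, Trpv4, Trpa1, Trpm2, Trpm3, Trpm4, Trpm6, Trpm7 and Trpm8. All 10 had a value in every one of 20 libraries. The libraries were made from cells sorted out of the dorsal root ganglia (DRG), and the authors describe these cells as sensory neurons that express Trpv1. The animals were adult mice aged 6 to 8 weeks, homozygous for the Trpv1 PLAP-nLacZ reporter, with no treatment. From each of 5 male and 5 female donors came 1 library of lumbar ganglia (L4-5) and 1 of sacral ganglia (L6-S1), which gave 4 groups of 5. The authors describe L6-S1 ganglia as holding neurons that supply pelvic organs, outnumbered there by somatic neurons, and L4-5 ganglia as somatic only. The comparison is thus between sorted cells of the levels, not between pelvic and somatic neurons. Donors are written M1 to M5 and F1 to F5, and each donor label carries 2 animal numbers, so that cells of more than 1 animal may be in a library.

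In all 4 groups the reporter stands at the Trpv1 gene itself. It makes β-galactosidase in cells that transcribe Trpv1, and the cells with the brightest galactosidase product were sorted, so Trpv1 is the gene the sort was made on and its high level is a condition of the experiment. The reporter animals served at both levels, and there was no unsorted or wild-type library for comparison here. Reads on genes numbered 43906566 to 66407317 per library. The number that ends each label ran in a block for each group, and what it counts is not stated. Anything it marks would coincide with level and sex and cannot be told apart from them here.

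TRPV1 opens on heat, acid and capsaicin. TRPA1 responds to irritants such as mustard oil, TRPM8 to cooling and menthol, and TRPM3 to heat and pregnenolone sulphate. TRPM2 is gated by ADP-ribose and calcium, is sensitive to oxidative stress and warmth, and is also well known in macrophages and neutrophils. In DRG the transcripts of Trpv1, Trpa1 and Trpm8 are classically found in small-diameter neurons, with Trpm8 largely in neurons other than those that keep Trpv1 in the adult.

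The sequences just upstream of Trpm2 and Trpv1 are shown because these genes had the largest differences between the levels, and that of Trpm7 because its difference was the smallest of the tested genes. Each run is the 250 bases before the start, 5′ to 3′ on the strand of the gene, from RefSeq on build GRCm38.p6. RefSeq windows were found for 8 of the 10 genes, with 11 windows in all. Capitals mark matches, on either strand, to 5 motifs, namely the TATA box (letters TATAAA), the CCAAT box, the GC box (letters GGGCGG), the RUNX core (letters TGTGGT) and the E-box (letters CACGTG).
Trpv1, chr11:73233899-73234148, plus strand: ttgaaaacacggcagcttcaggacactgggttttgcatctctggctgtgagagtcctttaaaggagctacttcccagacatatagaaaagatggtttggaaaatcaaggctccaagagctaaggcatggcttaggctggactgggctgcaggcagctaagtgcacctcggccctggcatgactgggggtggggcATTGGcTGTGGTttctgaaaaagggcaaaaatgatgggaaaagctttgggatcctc
Trpm2, chr10:77969873-77970122, minus strand: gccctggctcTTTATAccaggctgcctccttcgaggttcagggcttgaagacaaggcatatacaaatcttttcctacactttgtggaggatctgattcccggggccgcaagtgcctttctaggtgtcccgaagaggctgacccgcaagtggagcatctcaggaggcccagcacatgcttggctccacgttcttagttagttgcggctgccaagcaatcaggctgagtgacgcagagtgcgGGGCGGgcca
Trpm7, chr2:126876262-126876511, minus strand: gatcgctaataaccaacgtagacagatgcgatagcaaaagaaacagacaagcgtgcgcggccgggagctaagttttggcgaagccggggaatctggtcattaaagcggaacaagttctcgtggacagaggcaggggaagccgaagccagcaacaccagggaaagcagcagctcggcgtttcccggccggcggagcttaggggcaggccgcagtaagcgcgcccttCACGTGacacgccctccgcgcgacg
The Trpv1 window held 1 CCAAT match, read on the opposite strand, and 1 RUNX core next to it, at 56 and 50 bases before the start. The Trpm2 window held 1 GC box at 10 bases before the start and 1 TATA box match on the opposite strand, 240 bases before it. The Trpm7 window held 1 E-box at 25 bases. Of 32851 windows of this length, 33.8% held a CCAAT box, 32.7% a GC box, 14% a RUNX core, 12.4% a TATA box and 6.0% an E-box. The GC content was 50.8% for Trpv1, 56.8% for Trpm2 and 60.4% for Trpm7, against a median of 52.4% over all windows. No motif was common to the windows of Trpv1 and Trpm2.

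The levels spanned a wide range. They are given as log2 RPKM, on which reads are divided by gene length and by library size, so that genes can be set side by side. The length is that of all annotated exons merged, from 3681 bases for Trpv1 to 12341 for Trpm2. For genes with many transcripts this may be more sequence than a single transcript holds. The order of the genes and their shares of a sum rest on these lengths. Over the 20 libraries Trpv1 was highest at 4.22 ± 0.62 (SD, n = 20), followed by Trpm8 at 3.92 ± 0.45, Trpa1 at 3.23 ± 0.57 and Trpm3 at 3.12 ± 0.23. Trpv2 stood at 2.67 ± 0.42, Trpm7 at 2.02 ± 0.20, Trpm2 at 1.27 ± 0.63 and Trpm4 at 0.72 ± 0.29. Trpm6 at -1.35 ± 0.66 and Trpv4 at -2.04 ± 0.58 were the lowest.

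Only the step from Trpm4 down to Trpm6 held in all 20 libraries. Trpv1 was above Trpm8 in 15 of 20 libraries and Trpa1 above Trpm3 in 13 of 20. Trpm6 was above Trpv4 in 15 of 20 and Trpm2 above Trpm4 in 17 of 20. In each of these pairs the mean difference was smaller than its SD, so they were not ordered beyond their spread. The remaining neighbours kept their order in 16 to 19 of 20 libraries. Counts behind these levels were 1222 to 8345 reads per library for Trpv1, but only 20 to 98 for Trpv4 and 40 to 344 for Trpm6.

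**Figure D1:**
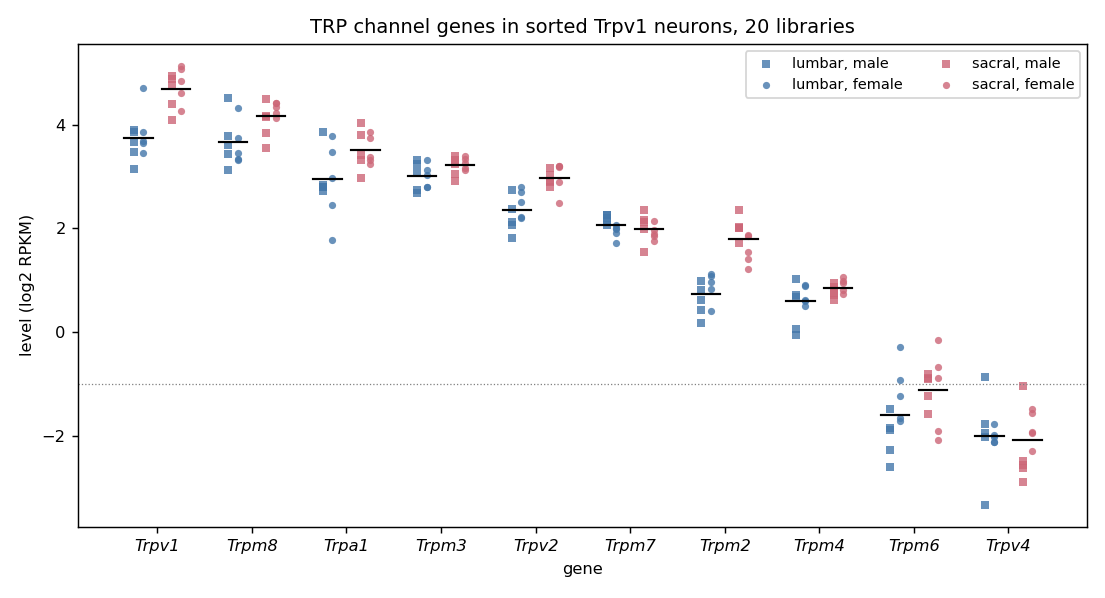
Level (log2 RPKM) of each of the 10 genes in every library, ordered by mean, with lumbar libraries in blue, sacral libraries in red, males as squares and females as circles. Bars are means of 10 libraries and the dotted line is the filter at -1, under which the group means of Trpm6 and Trpv4 lie.

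The sacral libraries had a higher summed RPKM of the TRP genes. The summed RPKM of the 10 genes was 57.1 ± 10.5 (SD, n = 10) in lumbar and 84.3 ± 10.1 in sacral libraries, and it was higher in the sacral library of all 10 donors. Trpv1, the gene of the sort, made up 24.1% of the sum in lumbar and 31.3% in sacral libraries. The mean of 8 pan-neuronal markers was higher in sacral as well, with a lumbar-minus-sacral log2 difference of -0.52. In the test across all genes, 16304 genes had a mean above -1 log2 RPKM in at least 1 group and were compared between the levels. Of the 10 genes 8 passed this filter, each of them above -1 in all 4 groups, and Trpv4 and Trpm6 did not. Of the 8, Trpv1, Trpv2, Trpa1, Trpm2 and Trpm8 were higher in sacral libraries at a limma adjusted p of at most 0.05. None was higher in lumbar on the deposited scale, and Trpm3, Trpm4 and Trpm7 did not pass. Relative to neuronal markers Trpm3, Trpm4 and Trpm7 were called higher in lumbar, as were 9655 of the 16304 genes. On the deposited scale 30.4% of all genes tested were called higher in sacral libraries and 15.3% higher in lumbar. In either direction 45.7% were called. The median log2 difference (lumbar minus sacral) was -0.54 for the 8 genes and -0.11 for all genes tested. Fewer cells that transcribe a gene and less RNA of it per cell cannot be told apart in these bulk libraries.

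**Figure D2:**
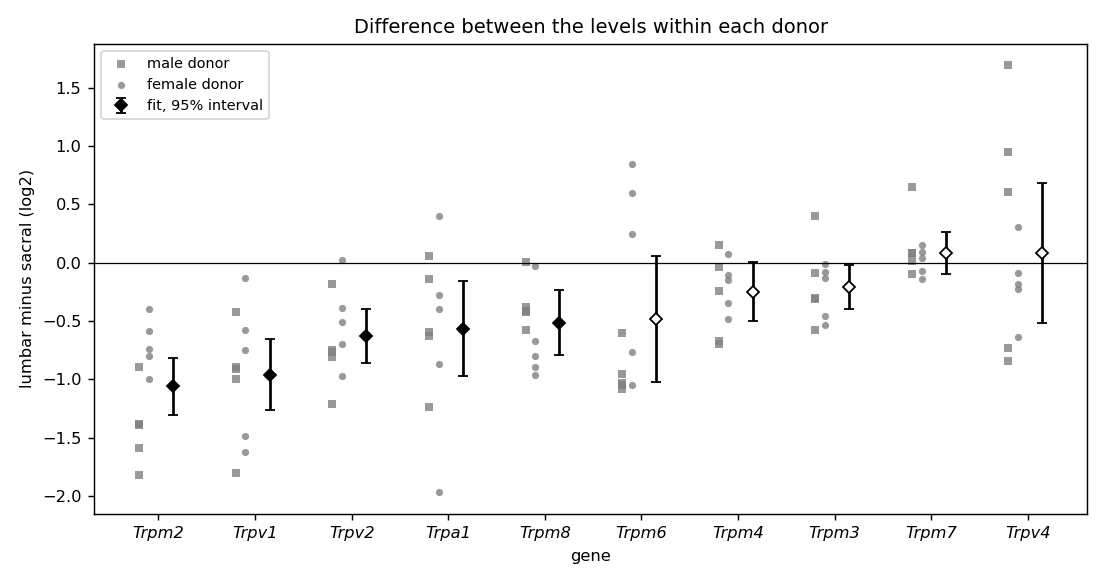
Difference between the levels (lumbar minus sacral, log2) for each of the 10 genes, with each donor as a grey point (males squares, females circles) and the limma estimate with its 95% interval as a diamond, filled where the adjusted p is at most 0.05. For Trpm2 and Trpv1 all 10 donors lie below 0; Trpm6 and Trpv4 are from the fit with no filter.

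Trpv1 encodes the capsaicin receptor, lies at chr11:73047794-73074744 on the plus strand (NCBIM37, the mm9 build) and is the gene of the sort. In male lumbar libraries its levels were 3.87, 3.68, 3.90, 3.48 and 3.14 log2 RPKM (M1 to M5), and in male sacral libraries 4.76, 4.10, 4.89, 4.40 and 4.94. In female lumbar libraries they were 3.65, 4.71, 3.69, 3.86 and 3.45 (F1 to F5), and in female sacral libraries 5.14, 4.84, 4.27, 4.61 and 5.07. Every donor was higher in sacral, by as little as 0.13 in F2, whose lumbar library stood above 4 of the 10 sacral libraries, and by as much as 1.80 in M5. The lumbar-minus-sacral difference was -0.96 ± 0.15 (SE, limma adjusted p = 3.46e-05), which is 1.94-fold more in sacral libraries (95% interval 1.58 to 2.40). Of 15318 tested genes with a value in every library, 14.6% were higher in sacral in all 10 donors, as Trpv1 and Trpm2 were.

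Trpv2, a relative of Trpv1 that opens at higher heat in expressed channels, is found in many larger neurons as well. Lumbar libraries ranged from 1.82 to 2.80 log2 RPKM with a median of 2.30, and sacral libraries from 2.50 to 3.21 with a median of 2.98. Sacral libraries were higher in 9 of 10 donors and F4 differed by 0.02 the other way. The log2 difference was -0.63 ± 0.11 (SE, limma adjusted p = 0.000148). Both sexes passed when fitted alone.

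Trpa1, the irritant receptor, had the widest spread of donor differences among the called genes (SD 0.68, n = 10). Its male lumbar levels were 3.87, 2.72, 2.84, 2.80 and 2.80 log2 RPKM and its male sacral levels 3.81, 3.31, 2.97, 3.43 and 4.04 (M1 to M5). Its female lumbar levels were 2.97, 3.79, 1.77, 2.45 and 3.48 and its female sacral levels 3.24, 3.39, 3.74, 3.31 and 3.87 (F1 to F5). Sacral was higher in 8 of 10 donors, and 8 of the 10 sacral libraries lay below the highest lumbar one. The log2 difference was -0.56 ± 0.20 (SE, limma adjusted p = 0.0225). It did not pass without F3 (-0.40, adjusted p = 0.0722), without F4 (-0.53, 0.0509) or without M5 (-0.47, 0.071), nor in either sex alone, nor with quantile normalization (-0.40, adjusted p = 0.0826). F3 alone had a difference of -1.97.

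Trpm8, the cold and menthol receptor, was high in these Trpv1-sorted cells. In male lumbar libraries it stood at 3.78, 3.60, 4.51, 3.13 and 3.44 log2 RPKM and in male sacral libraries at 4.15, 4.18, 4.51, 3.56 and 3.85. In female lumbar libraries it stood at 3.32, 3.47, 3.34, 4.32 and 3.75, and in female sacral libraries at 4.12, 4.42, 4.24, 4.34 and 4.42. M3 and F4 had the same level in both libraries within 0.03, and the other 8 donors were higher in sacral. The log2 difference was -0.51 ± 0.14 (SE, limma adjusted p = 0.00415). It passed in females alone and not in males alone (-0.36, adjusted p = 0.192), and the difference between the sexes did not pass (-0.31 ± 0.27, adjusted p = 1). With quantile normalization it did not pass (-0.32, adjusted p = 0.0738). An annotated antisense transcript, 4930453O03Rik, shares 388 exon bases with Trpm8, which is 8.2% of the exon length of Trpm8. Whether counting used the strand is not stated in the sources used here, so reads there cannot be assigned with certainty.

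The heat-sensitive Trpm3 was the steadiest of the high members. Lumbar libraries ran from 2.68 to 3.32 log2 RPKM (median 3.06) and sacral libraries from 2.92 to 3.40 (median 3.25), with sacral higher in 9 of 10 donors. The log2 difference was -0.21 ± 0.09 (SE, adjusted p = 0.0659), which missed the threshold, with a 95% interval of -0.40 to -0.02. Without M2, the donor that ran the other way at 0.40, the difference was -0.28 and passed (adjusted p = 0.0147). The Trpm3 gene spans 850766 bases of chromosome 19 and contains Mir204 within an intron on the same strand, with no exon bases shared.

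Trpm2, the ADP-ribose-gated channel, showed the largest difference of the 10 and was the only one whose lumbar and sacral libraries did not overlap. Its male lumbar levels were 0.99, 0.62, 0.18, 0.82 and 0.43 log2 RPKM and its male sacral levels 2.36, 2.02, 2.0, 1.71 and 2.02. Its female lumbar levels were 1.08, 0.96, 0.82, 0.41 and 1.11, and its female sacral levels 1.88, 1.55, 1.22, 1.40 and 1.85. The highest lumbar library (1.11) lay below the lowest sacral library (1.22), a separation seen in 1.71% of tested genes with a value in every library. The log2 difference was -1.06 ± 0.12 (SE, limma adjusted p = 1.81e-06), or 2.08-fold more in sacral libraries (95% interval 1.76 to 2.47). Trpm2 lies at chr10:77370467-77433308 on the minus strand, and 9 transcripts give it 12341 bases of merged exons, so RPKM is taken over more sequence than its coding transcript alone holds.

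Within sacral libraries Trpm2 was lower in females than in males by 0.44 ± 0.18 on the log2 scale (SE, limma adjusted p = 0.575), and in lumbar libraries it was 0.27 ± 0.18 higher in females (adjusted p = 0.576). Its level difference was -1.41 in males alone and -0.70 in females alone. The test of the difference between the sexes gave 0.71 ± 0.24 (SE, limma adjusted p = 0.933), so it did not pass over all genes.

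Trpm4, a calcium-activated channel for monovalent cations, ran from -0.05 to 1.02 log2 RPKM in lumbar libraries (median 0.65) and from 0.62 to 1.05 in sacral libraries (median 0.85). The 2 lowest lumbar libraries were those of M4 and M2. The log2 difference of -0.25 ± 0.12 (SE, adjusted p = 0.097) did not pass, and it did without M5 (-0.31, adjusted p = 0.0462). Trpm7, a magnesium-permeable channel fused to a kinase and present in most cells, was the least different. Its lumbar libraries ran from 1.72 to 2.26 (median 2.07) and its sacral libraries from 1.55 to 2.35 (median 1.98), and 3 of 10 donors were higher in sacral. The log2 difference was 0.08 ± 0.09 (SE, adjusted p = 0.473), with a 95% interval of -0.10 to 0.26.

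Trpm6, the relative of Trpm7 known from magnesium uptake in kidney and gut, and Trpv4, an osmo- and warmth-sensitive channel of many epithelial and vascular cells, were near the lower end of detection. Trpm6 ran from -2.61 to -0.28 log2 RPKM in lumbar and from -2.08 to -0.15 in sacral libraries. All 5 male donors were higher in sacral, by 0.60 to 1.08, and 2 of 5 females were. With no filter its log2 difference was -0.48 ± 0.26 (SE, adjusted p = 0.158) and the difference between the sexes was 0.92 ± 0.52 (adjusted p = 1). Trpv4 ran from -3.34 to -0.87 in lumbar and from -2.89 to -1.04 in sacral libraries, and with no filter differed by 0.08 ± 0.29 (SE, adjusted p = 0.854).

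None of the 8 tested genes differed between females and males at either level by limma over all genes. In lumbar libraries none of the 8 had an unadjusted p under 0.05, and the lowest adjusted p was 0.493. With no filter Trpm6 was 0.86 ± 0.40 higher in females in lumbar libraries (SE, limma unadjusted p = 0.0439, adjusted p = 0.5). In sacral libraries and for the sex-by-level difference 1 member, Trpm2, had an unadjusted p under 0.05. Voom on worked-back reads called 0 members in all 3 comparisons. Of all genes tested 0.0427% were called between the sexes in lumbar libraries, 0.0368% in sacral libraries and 0% for the sex-by-level difference. The 95% intervals of the female-minus-male log2 differences were wide for Trpa1, from -0.75 to 0.52 in lumbar libraries, and narrow for Trpm3, from -0.30 to 0.29.

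The make-up of the family within a library does not depend on scaling by 1 factor per library. Quantile normalization moves genes unequally. It took the level difference of Trpv1 from -0.96 to -0.76 and that of Trpm2 from -1.06 to -1.04. Shares are given for the deposited values only. Trpv1 made up 24.1 ± 4.3% (SD, n = 10) of the summed RPKM of the 10 genes in lumbar and 31.3 ± 4.2% in sacral libraries, and the share was higher in sacral in 8 of 10 donors. Trpm8 took 23.2 ± 6.1% and 21.9 ± 3.7%, and Trpa1 14.4 ± 4.6% and 13.9 ± 3.0%, differences smaller than their spread. Trpm3 had 14.5 ± 2.2% in lumbar and 11.2 ± 0.7% in sacral libraries and Trpm7 had 7.54 ± 1.48% and 4.79 ± 0.93%, both lower in sacral in all 10 donors. Trpm2 had 3.07 ± 0.80% and 4.26 ± 0.97%, and was higher in sacral in 7 of 10. A share falls when other members of the sum rise, so a lower share does not show that the gene itself fell. These shares were described and not tested.

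**Figure D3:**
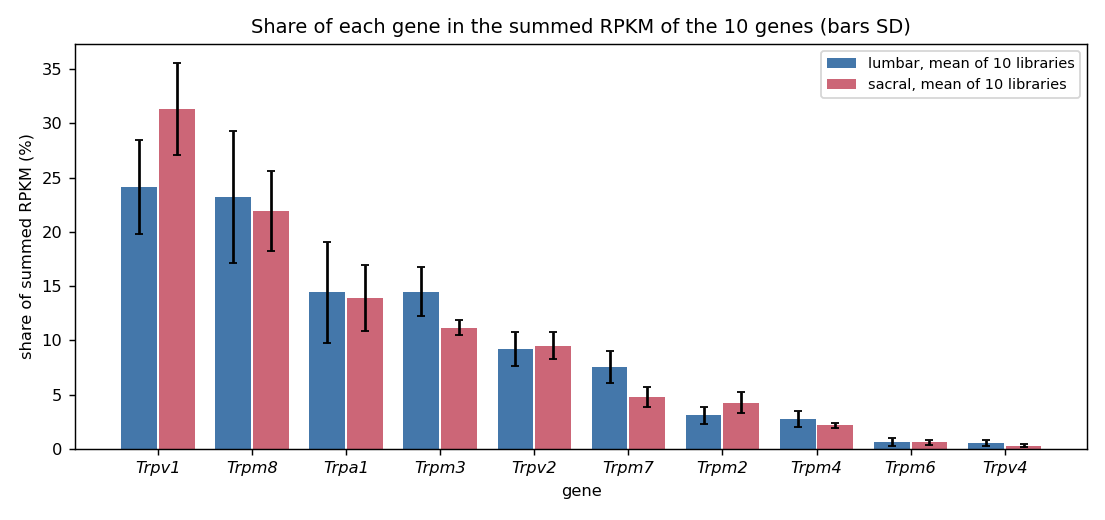
Share (%) of each gene in the summed RPKM of the 10 genes, with lumbar in blue and sacral in red, as means of 10 libraries with SD bars. The sacral bar of Trpv1 reaches 31.3% against 24.1% in lumbar, while those of Trpm3 and Trpm7 are lower than in lumbar.

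Set against Trpv1 in the same library, Trpm2 had a log2 ratio of -3.00 ± 0.49 (SD, n = 10) in lumbar and -2.90 ± 0.40 in sacral libraries, a difference within its spread. The log2 ratio of Trpm8 to Trpv1 was -0.08 ± 0.54 in lumbar and -0.52 ± 0.39 in sacral libraries, and that of Trpa1 was -0.80 ± 0.61 and -1.19 ± 0.46, each lower in sacral in 7 of 10 donors. Trpm3 and Trpm7 were lower relative to Trpv1 in sacral in all 10 donors, by 0.75 ± 0.34 and 1.04 ± 0.51 on the log2 scale. The lumbar-minus-sacral difference of Trpv1 itself was -0.96, so a gene equal at both levels falls by that much against it. All these ratios contain the Trpv1 difference and are not separate results on the other gene.

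Markers of other cells moved with the level, and their part in the TRP differences was not tested beyond the fits given here. All 10 glial markers tested were higher in lumbar, and 0 were at no reads in any library. Their summed RPKM ranged from 1343 to 3037 in lumbar and from 641 to 1419 in sacral libraries, and their mean was 1.03 ± 0.26 (SD, n = 10 donors) higher in lumbar on the log2 scale. All 8 pan-neuronal markers were higher in sacral, with a summed RPKM of 848 to 1439 in lumbar and 1359 to 1815 in sacral libraries, and their mean was 0.52 ± 0.22 higher in sacral. The median sum in lumbar libraries was 1841 for the glial and 1096 for the pan-neuronal markers. In sacral libraries it was 887 and 1525. The TRP levels are therefore those of sorted cells that include glial RNA, not of pure neurons. Of 5 fibroblast markers tested 4 were higher in lumbar, but their median summed RPKM was 102 in lumbar and 121 in sacral libraries. Of 9 endothelial and mural markers 8 were higher in lumbar and Rgs5 was higher in sacral. Their median summed RPKM was 166 in lumbar and 164 in sacral libraries. For both lists the counts thus do not show more of this RNA in total in lumbar libraries. Of 5 large-neuron markers tested 2 were higher in lumbar, Ntrk2 and Pvalb, and 3 did not pass, with a median log2 difference of 0.13. The mean of Pvalb over libraries with reads was above the filter at -1 in lumbar (-0.29) but below it in sacral libraries (-2.36).

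Of 10 macrophage markers 5 passed the filter, and of these 3 were higher in lumbar (Mrc1, Csf1r and C1qc), 0 in sacral, and 2 did not pass. The means of these 3 over libraries with reads were -0.38, -0.20 and -0.64 log2 RPKM in lumbar, above the filter at -1. In sacral libraries they were -2.17, -1.31 and -2.74, below it. The filter can let in such markers through the level where they are high, so it partly set the direction of this count. The summed RPKM of the 10 macrophage markers was 3.83 to 19.0 in lumbar and 2.18 to 5.14 in sacral libraries. Cx3cr1 and C1qa had no reads in 5 sacral libraries each. Neutrophil markers varied between libraries, with a summed RPKM of 0 to 11.2 in lumbar and 0 to 40.2 in sacral libraries, and none had reads in all 20. The median sum was 2.67 in lumbar and 2.50 in sacral libraries. Their mean was 0.63 ± 3.40 (SD, n = 10 donors) higher in sacral on the log2 scale, a difference within its spread. The test leaves out libraries with no reads, and on the rest 3 of 4 markers were called higher in sacral and 0 in lumbar. The part of these cells in the TRP differences was not tested.

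**Figure D4:**
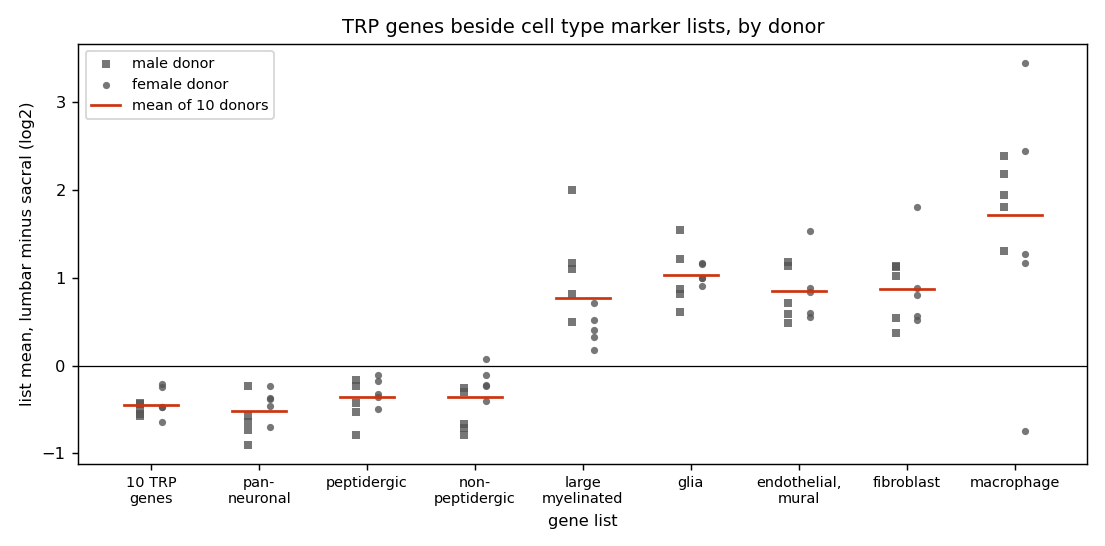
Mean of each gene list, lumbar minus sacral (log2), for each of 10 donors (males squares, females circles), with the mean over donors in red. The 10 TRP genes lie below 0 together with the pan-neuronal list, and the glial, endothelial, fibroblast and large-neuron lists lie above 0 in all 10 donors.

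When each value was taken relative to the mean of the 8 pan-neuronal markers of its library, an alternative chosen after the data were seen, the median of all genes moved from -0.11 to 0.41. On this scale Trpv1 (-0.44 ± 0.13, SE, limma adjusted p = 0.00801) and Trpm2 (-0.54 ± 0.12, adjusted p = 0.000771) were called higher in sacral libraries, as 3.34% of all genes were. Trpm3 (0.31), Trpm4 (0.27) and Trpm7 (0.60) were called higher in lumbar, as were 9655 of 16304 genes. In either direction 62.6% of all genes were called. Trpa1 at -0.04, Trpv2 at -0.11 and Trpm8 at 0.01 did not pass. On this scale the signs of Trpm3, Trpm4 and Trpm8 turned.

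With the glial marker mean as a covariate 0 of the 8 genes were called, and 0.478% of all genes were. The estimates were -0.39 ± 0.26 (SE) for Trpv1 and -0.68 ± 0.22 for Trpm2 (adjusted p = 0.693 and 0.241), and Trpa1 turned to 0.32. The glial mean ran from 5.81 to 6.99 log2 RPKM in lumbar and from 4.81 to 6.04 in sacral libraries, so that the covariate and the level barely overlap and are hard to tell apart. With the macrophage marker mean as a covariate Trpv1 (-0.86), Trpm2 (-0.84) and Trpm8 (-0.82) were called, as 9.73% of all genes were. Trpv2 (-0.47, adjusted p = 0.0702) and Trpa1 (0.11, adjusted p = 0.777) lost their calls.

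**Figure D5:**
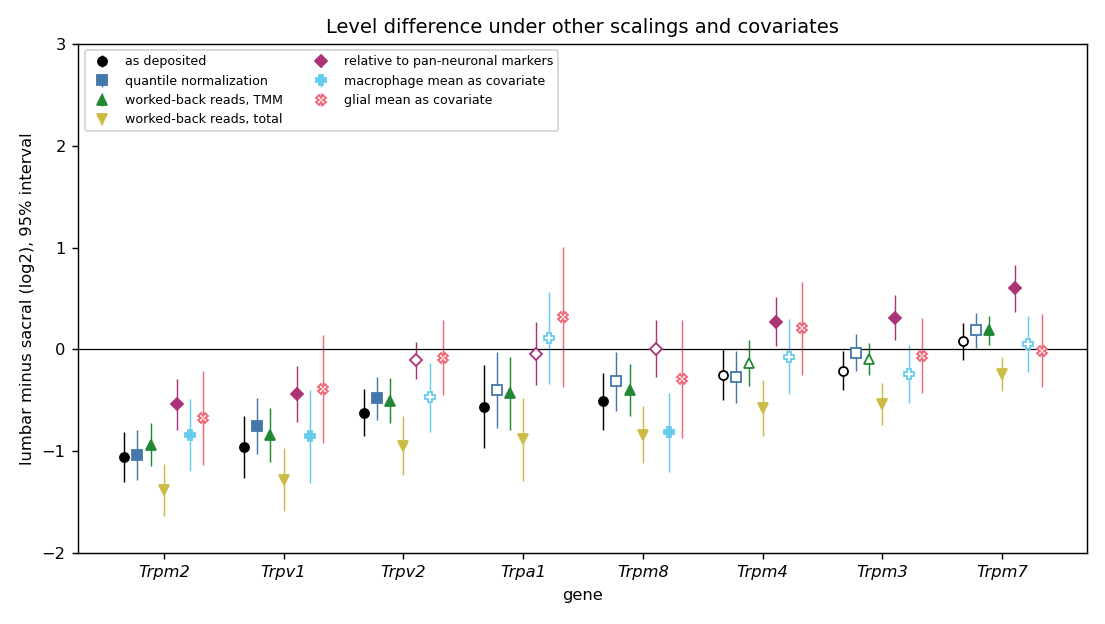
Level difference (lumbar minus sacral, log2) with its 95% interval for the 8 tested genes under 7 settings, filled where the adjusted p is at most 0.05. The estimates of Trpm2, Trpv1 and Trpv2 stay below 0 under every setting drawn, whereas Trpa1, Trpm8, Trpm4, Trpm3 and Trpm7 have estimates on both sides of 0. With the glial covariate the intervals of Trpv1 (-0.92 to 0.14) and Trpv2 (-0.45 to 0.28) include 0. That of Trpv2 relative to pan-neuronal markers (-0.29 to 0.08) does as well.

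Scaling also moved the split of calls over all genes. With the deposited values 4957 genes were higher in sacral and 2501 in lumbar. With quantile normalization these were 3445 and 3073, with voom on reads scaled by TMM 3579 and 3269, and with voom on reads scaled to total reads 9561 and 1277. Trpv1, Trpv2 and Trpm2 were called higher in sacral under each of these scalings, while Trpa1 and Trpm8 were not called with quantile normalization. Trpm7 was called higher in lumbar with TMM (0.19, adjusted p = 0.0294) and higher in sacral with total reads (-0.25, adjusted p = 0.00948).

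Of 30 genes listed as acting on TRPV1 or TRPA1, 28 were tested, 19 were higher in sacral, 2 were higher in lumbar (Alox12 and Src) and 7 did not pass. The median log2 difference was -0.39, against -0.11 over all genes tested, of which 30.4% were higher in sacral, and the list itself was not tested. Pirt, a phosphoinositide-binding partner of TRPV1, rose from 7.60 ± 0.33 (SD, n = 10) log2 RPKM in lumbar to 8.23 ± 0.18 in sacral libraries, a log2 difference of -0.63 (adjusted p = 5.52e-05) in the same direction in 10 of 10 donors. Protein kinase C genes Prkca (-0.70) and Prkce (-0.68), whose products phosphorylate TRPV1, were higher in sacral in all 10 donors. Bdkrb2, the bradykinin receptor gene, was at -2.13 ± 0.98 in lumbar and -0.77 ± 0.76 in sacral libraries, on either side of the filter at -1. So was Alox12, at 0.04 ± 1.02 in lumbar and -1.44 ± 1.29 in sacral libraries. The filter can let in such genes through the level where they are high, so it partly set their direction in the count. Tmem100, which modulates the TRPA1 and TRPV1 complex, differed by -0.26 ± 0.09 (SE, adjusted p = 0.019), and the kinase anchor Akap5 at -0.23 ± 0.23 did not pass (adjusted p = 0.442).

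Of 6 enzymes that make or remove ADP-ribose, the TRPM2 ligand, 2 were higher in sacral and 1 in lumbar, close to the 30.4% and 15.3% of all genes. Cd38 was higher in lumbar, at 1.09 ± 0.86 (SD, n = 10) against -0.56 ± 0.52 log2 RPKM, in all 10 donors (log2 difference 1.66, limma adjusted p = 1.2e-05). Parp1 (-0.55) and Parg (-0.37) were higher in sacral libraries. The other 3 did not pass.

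Of 12 further thermosensory or nociceptor channels 11 were tested, 7 were higher in sacral and 2 in lumbar, beside 30.4% and 15.3% of all genes. The sodium channel genes Scn11a (-1.19 ± 0.15, SE), Scn9a (-1.06 ± 0.14) and Scn10a (-0.94 ± 0.15), which carry the action potential of nociceptors, differed by about as much as Trpv1 and Trpm2 and in 10 of 10 donors. The potassium channel gene Kcna1 and the kainate receptor gene Grik2, linked to cold sensing, were higher in lumbar by 0.50 and 0.41. Kcnk18 (-0.24, adjusted p = 0.514) did not pass. Ano1, a heat-activated chloride channel gene, was below the filter at -1.89 ± 1.28 (SD) in lumbar and -3.51 ± 1.76 in sacral libraries, and higher in lumbar in all 10 donors.

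Of 18 other TRP genes 9 passed the filter. Trpc4 (-1.07 ± 0.18, SE) and Trpc1 (-0.69 ± 0.14), which form receptor-operated channels, were among 4 that were higher in sacral, and the polycystin gene Pkd2 (1.04 ± 0.15, SE) was the only one higher in lumbar, in all 10 donors. Of 6 peptidergic neuron genes 3 were higher in sacral, led by Adcyap1 (-0.86), and of 9 nonpeptidergic and itch genes 4 were, led by Mrgpra3 (-0.94). In both lists 0 were higher in lumbar. Over all genes 30.4% were higher in sacral, and none of these lists was tested.

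The genes most like Trpv1 across the 20 libraries, by correlation of deviations from the group means, were Helz (0.94), Zzef1 (0.92) and Ubr4 (0.92). For Trpa1 they were Acat2 (0.94), Bap1 (0.94) and the neuronal filament gene Prph (0.93). For Trpm8 they were its antisense neighbour 4930453O03Rik (0.94), then Gm17222 and Nfrkb at 0.76. This neighbour shares 388 exon bases with Trpm8, and whether counting used the strand is not stated. The value of 0.94 may thus not describe a separate transcript, which was not tested. Among the members Trpv1 and Trpm3 were closest at 0.79, then Trpv2 and Trpa1 at 0.62, while Trpm2 and Trpm8 stood at -0.33 and Trpv4 and Trpa1 at -0.42. These correlations describe 20 libraries that share donors and scaling.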

How the data were processed

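RNA of the sorted cells from 20 samples was sequenced (NuGEN Ovation and Nextera XT). The authors aligned reads to mm9 with Subread, counted uniquely mapped reads on Ensembl genes with featureCounts, scaled them with edgeR and limma, and deposited log2 RPKM values. Every library has the same median of 0.93, a step the sources used here do not describe, and 319449 cells are empty. Symbols and positions came from the NCBIM37 annotation by identifier (37205 of 37620 genes).

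Levels were compared with limma 3.58.1 and statmod 1.5.0 (R 4.3.3) on these log2 values: a mean for each of 4 groups, donor as a random block (correlation 0.18) and variances moderated toward their trend with the mean. P-values were adjusted by Benjamini-Hochberg over all genes tested. Genes were kept when their mean was above -1 in at least 1 group, over at least 3 values. A gene was called at an adjusted p of at most 0.05. Pairing came from the animal numbers that lumbar and sacral labels share. Deviations of paired libraries correlated at 0.18 on average (0.04 to 0.30) and those of other donors at -0.04. Deviations from a group mean cancel within the group, so the value for other donors largely follows from that for pairs. Nothing says that donors were cultured or prepared separately beyond these labels.

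Reads per gene were worked back from the values. Of 419214 values under 10000 reads, 98.1% were whole within 0.01 of a read, and so were all values of the 10 genes. Depth and voom alternatives use these reads, and depth describes counting error only. A marker mean sets an empty cell at 0.5 reads.

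The 10 genes and all lists were chosen with earlier results of these data known. All 10 genes are named. Of each other list at most 3 called genes per direction with the largest change are named, with Pirt, Tmem100, Akap5, Ano1 and Kcnk18 in any case. Of the genes so chosen 1 is not reported here, and most cell type markers are given as counts only. Alternatives were other filters, pseudocounts of 1 and 0.1, empty cells at 0.5 reads, quantile normalization, voom, no trend, array weights, other blocks, each donor left out, each sex alone, marker covariates and an adjusted p of 0.01. The level fit was tested on simulated data. Python 3.11.15, pandas 2.3.3, numpy 2.4.6 and matplotlib 3.10.9 were used for summaries and plots.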

Additional observations from a re-analysis of the deposited data

Results flagged for a closer look

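In 2 of 40 groups of 5 libraries 1 library stood apart from the others, and chance puts about 5% of groups of this size apart. Trpa1 in the male lumbar library of M1 was at 3.87 log2 RPKM (3092 reads), with the other 4 libraries between 2.72 and 2.84. Without M1 the level difference of Trpa1 still passed. Trpv4 in the male sacral library of M3 was at -1.04 log2 RPKM (98 reads), with the others between -2.89 and -2.50.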

How the results depend on the processing

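Of the 28 alternatives for the level comparison, those that moved the count of 5 called members by over 1.5 times were quantile normalization (3), the glial covariate (0), the macrophage covariate (3), males alone (3) and voom on total reads (9). With each donor left out in turn the count was 4 to 6. The paired fit with the replicate block as a fixed effect gave 5, as did the fit with no replicate block, and no call on a member changed. Signs turned with the glial covariate for Trpa1 (0.32), Trpm4 (0.20) and Trpm7 (-0.02), with the macrophage covariate for Trpa1 (0.11), relative to pan-neuronal markers for Trpm3 (0.31), Trpm4 (0.27) and Trpm8 (0.0067), and with total reads for Trpm7 (-0.25) and Trpv4 (-0.24), where the median of all genes was -0.45. The cause was not tested. Trpv1 and Trpm2 were lower in lumbar in all 28 and called in 27 each, the exception being the glial covariate. Trpa1 was called in 18. The sex comparisons called 0 members in each of 76 alternative results, while over all genes they called 3 to 12 genes in lumbar and 3 to 40 in sacral libraries. Over all genes the level comparison called 78 (glial covariate) to 10838 genes (total reads), with 7458 as deposited, 4658 in males alone, 3687 in females alone and 1587 with the macrophage covariate. The 20 to 98 reads on Trpv4 and 40 to 344 on Trpm6 limit their precision.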
